A study of Mus musculus with 6 samples.

Results

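A group of 9 genes around corticosteroids was followed in mouse osteoblasts: *Hsd11b1*, *Hsd11b2*, *H6pd*, *Nr3c2*, *Srd5a1*, *Srd5a3*, *Abcb1a*, *Abcb1b* and *Por*. They were taken by name for their place in corticosteroid metabolism, steroid efflux and mineralocorticoid signalling, with earlier results of these data known. All 9 were found among the 24016 genes of the table. Of these 9, *Nr3c2* was too low to judge and 8 were judged. With corticosterone, the transcripts of *H6pd*, *Por*, *Abcb1a* and *Abcb1b* rose, those of *Hsd11b2* and *Srd5a1* fell, and *Srd5a3* did not pass the test. That of *Hsd11b1* was lower on few reads, at most 14 per library, and it was judged through its vehicle libraries alone.

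The cells were MC3T3-E1 subclone 4, 1 clonal preosteoblast line from mouse calvaria, so that every library comes from the same clone. They were differentiated over 6 days with ascorbic acid at 50 µg/ml and β-glycerophosphate at 10 mM, and the labels list 10 nM calcitriol in the medium of both groups. Treatment lasted 24 h, with vehicle (3 libraries) or with corticosterone at 100 nM (3 libraries), which is the chief glucocorticoid in mice. The paper calls the RNA-seq replicates biological. The labels do not say how the replicate cultures were kept apart, so p-values measure the spread between these libraries, which may be partly technical.

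Glucocorticoids act through the glucocorticoid receptor, and also bind the mineralocorticoid receptor with high affinity. Within a target cell the amount of active hormone is adjusted before it meets a receptor. The enzyme encoded by *Hsd11b1* turns the inert 11-keto steroid back into corticosterone in the endoplasmic reticulum, using NADPH that the *H6pd* product makes there, while the *Hsd11b2* enzyme runs the opposite reaction. Steroid reductases lower the hormone further, P-glycoproteins pump steroids and drugs out of the cell, and the *Por* product hands electrons from NADPH to microsomal cytochrome P450 enzymes. In bone, the balance of the *Hsd11b1* and *Hsd11b2* enzymes is known as a control of local glucocorticoid exposure.

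Gene values are normalized counts, that is, read counts divided by 1 size factor per library, and between 16020401 and 25638645 reads per library fell on genes. The vehicle libraries held 19076586 to 25638645 reads and the corticosterone libraries 16020401 to 18992332, so depth moved with treatment, and its part in the results was not tested beyond the scaling alternatives. A count of 3 reads, taken here as the floor for counting error alone, corresponds to a normalized count of 2.32 to 3.84. The glucocorticoid-induced genes *Tsc22d3* and *Fkbp5* checked the labels: *Tsc22d3* ranged over 481 to 542 with vehicle and 1333 to 1511 with corticosterone, and *Fkbp5* over 448 to 474 and 2337 to 2788. In bulk RNA, fewer cells of a type and less RNA per cell cannot be told apart. Log2 fold changes are corticosterone minus vehicle on the log2(normalized count + 0.1) scale, from limma with Benjamini-Hochberg adjustment over all genes, and a gene was called at an adjusted p under 0.05 and a log2 fold change beyond 1 in either direction.

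Of the 9 genes, 1, *Hsd11b1*, was called lower and 0 were called higher, where 1.4% of all 24016 genes were called lower and 1.38% higher. At an adjusted p under 0.05 without a limit on size, 4 of the 9 were higher and 3 were lower, beside 8.49% and 8.2% of all genes. By unadjusted p under 0.05 the counts of the judged genes were also 4 and 3, and 0 were called higher by edgeR and by DESeq2 too. Among the 13880 genes with a mean of at least 10, a background closer in level, 27.7% passed in either direction, and 6 of the 7 members with such a mean did. The groups did not overlap for 8 of the 9 genes, against 29.6% of all genes, and for 7 of 7 with a mean of at least 10, against 43.8%. Since the 9 genes were chosen with earlier results of these data known, the shares are a background and no test of the set. The median log2 fold change over all genes was -0.01.

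**Figure D1:**
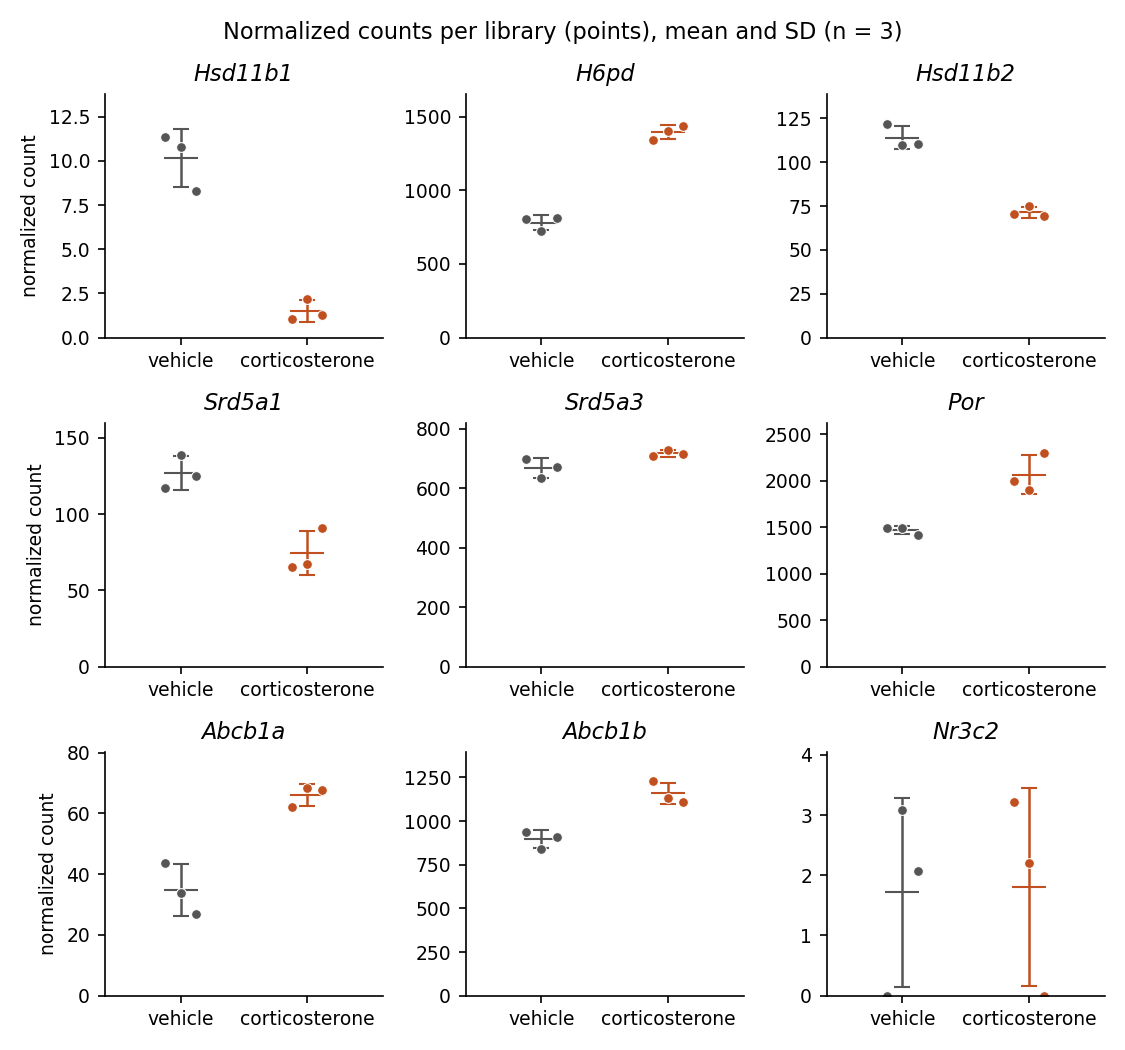
Normalized counts (y axis, from 0 in each panel) of the 9 genes in the 3 vehicle and 3 corticosterone libraries, with the group mean and SD. The corticosterone points lie below all vehicle points for *Hsd11b1*, *Hsd11b2* and *Srd5a1*, above them for *H6pd*, *Srd5a3*, *Por*, *Abcb1a* and *Abcb1b*, and among them for *Nr3c2*.

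*Hsd11b1*, which regenerates active corticosterone, had a low transcript level in vehicle-treated cells and a lower one with the hormone. The gene (ENSMUSG00000016194) is on the minus strand of chromosome 1, at 193221634 to 193264075 in GRCm38. Vehicle libraries had normalized counts of 11.4, 10.8 and 8.27 and corticosterone libraries of 1.07, 2.21 and 1.28, which rest on 14, 14 and 8 reads and on 1, 2 and 1 reads. Every corticosterone library lay below every vehicle library, and all 3 were under the floor of 3 reads. The means were 10.1 ± 1.64 and 1.52 ± 0.606 (SD, n = 3), with a log2 fold change of -2.71 (SE 0.75, 95% interval -4.30 to -1.13, adjusted p = 0.018 by limma). By counting error alone, 36 vehicle reads against 4 gave a ratio of 0.148, with an exact 95% interval of 0.0383 to 0.413.

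The *Hsd11b1* call rests on few reads. The gene reached 10 reads, the least needed to be judged, in vehicle libraries only, and had at most 2 with corticosterone. With 1 or 0.01 added to the counts in place of 0.1, its log2 fold change was -2.16 or -2.79 (adjusted p = 0.005 and 0.032 by limma). Its adjusted p was 0.080, 0.071 and 0.056 by limma without vehicle library 1, 2 or 3, with log2 fold changes of -2.62, -2.66 and -2.85, while leaving out any corticosterone library kept it under 0.05. An exact two-sided permutation test gave p = 0.1, the smallest that 3 against 3 libraries allow, as for each of the other judged genes. No 31-base word of its transcripts was shared with another gene, and *Lamb3*, a laminin chain gene on the opposite strand that overlaps it without sharing exon bases, had 30.8, 65.6 and 37.2 normalized counts with vehicle and 10.7, 9.94 and 14.1 with corticosterone. The part of unspliced reads from that gene was not tested.

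*H6pd*, whose enzyme oxidizes hexose phosphate inside the endoplasmic reticulum and so feeds NADPH to the *Hsd11b1* enzyme, moved in the other direction. The gene (ENSMUSG00000028980) lies on chromosome 4, 149979475 to 150009023, minus strand. Its normalized counts were 803, 726 and 815 with vehicle and 1343, 1405 and 1438 with corticosterone. The lowest corticosterone library was far above the highest vehicle library. The means of 781 ± 48.1 and 1395 ± 48.4 (SD, n = 3) gave a ratio of 1.79 and a log2 fold change of 0.84 (SE 0.06, 95% interval 0.71 to 0.96, adjusted p = 2.5e-08). It passed the test in all 22 alternatives tried, with log2 fold changes of 0.79 to 0.87 when 1 library was left out.

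The stretches upstream of the RefSeq start sites of *Hsd11b1* and *H6pd*, whose enzymes are linked through NADPH, were picked for display with their changes in view. Any part of these letters in the changes was not tested. The 250 bases before the start were searched on both strands for the glucocorticoid receptor half-site AGAACA, which reads as TGTTCT on the other strand, and for the CCAAT box, which reads as ATTGG there. Of the 8 members with a RefSeq promoter, 1, *H6pd*, held the half-site, 94 bases before the start. That is no higher a share than the 16.1% of 32851 RefSeq promoters that hold it. Some of these RefSeq starts lie away from the GENCODE 5′ end of the gene. The distance was 92986 bases for *Abcb1a*, 21715 for *Hsd11b1*, 19112 for *Por* and 2888 for *Nr3c2*. For such members the counts here and below describe stretches that are not at the annotated gene start. Capitals mark the half-site and the CCAAT boxes. The *H6pd* stretch (chr4:150003237-150003486, GRCm38.p6, minus strand) lies in an intron of the GENCODE gene, 5787 bases from its 5′ end, and the *Hsd11b1* window (chr1:193242415-193242444, minus strand) begins 84 bases before the RefSeq start, in an annotated *Hsd11b1* exon.
H6pd: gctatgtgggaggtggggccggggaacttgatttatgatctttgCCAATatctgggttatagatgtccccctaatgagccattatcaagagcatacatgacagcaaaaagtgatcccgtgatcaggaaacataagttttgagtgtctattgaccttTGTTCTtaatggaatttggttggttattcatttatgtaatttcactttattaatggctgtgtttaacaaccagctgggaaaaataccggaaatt
Hsd11b1: tcccacccaaagCCAATcgttgctctgaca

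Such a match describes letters and not receptor binding, which these data did not measure. The whole palindrome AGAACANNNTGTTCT was in 3 of the 32851 promoters and in 0 of the 8 member promoters. The CCAAT box was in 5 of the 8 (33.8% of all promoters), and the GC box GGGCGG, searched also as CCGCCC, was in 5 of the 8 (32.7% of all). *Hsd11b2* had no entry.

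*Hsd11b2*, which oxidizes corticosterone to its inert form and protects the mineralocorticoid receptor in kidney, was also lower with the hormone. The gene (ENSMUSG00000031891) lies on chromosome 8, 105518755 to 105523988, plus strand. The 3 vehicle libraries had 122, 110 and 111 normalized counts and the 3 corticosterone libraries 70.7, 75.1 and 69.1, and the groups lay well apart. The means were 114 ± 6.66 and 71.6 ± 3.12 (SD, n = 3), with a log2 fold change of -0.67 (SE 0.14, 95% interval -0.97 to -0.36, adjusted p = 0.0031 by limma). With DESeq2 and the replicate block it did not pass (adjusted p = 0.068). Transcripts of both genes of the interconversion were thus lower, that of *Hsd11b1* on few reads and short of the threshold without any 1 of the vehicle libraries. *Hsd11b2* had the higher transcript level per length in both groups: 61.9 against 2.39 normalized counts per kb of exons with vehicle, and 38.9 against 0.357 with corticosterone.

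The 2 steroid reductase genes of the group differed. *Srd5a1* encodes a reductase that acts on corticosterone, testosterone and progesterone. The gene (ENSMUSG00000021594) lies on chromosome 13, 69573449 to 69611442, minus strand. Its normalized counts were 117, 139 and 125 with vehicle and 65.3, 67.4 and 90.8 with corticosterone, the third corticosterone library being nearest to the vehicle group. The means were 127 ± 11.2 and 74.5 ± 14.2 (SD, n = 3), with a log2 fold change of -0.78 (SE 0.16, 95% interval -1.12 to -0.44, adjusted p = 0.0022 by limma). Of its 31-base words 15.7% also lie in other genes, chiefly the same-strand *Gm17108*, whose own normalized counts reached at most 4.63. Without the variance trend the adjusted p of *Srd5a1* was 0.068 by limma.

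*Srd5a3*, whose product serves chiefly in making dolichol, the lipid carrier of protein glycosylation, did not pass the test. The gene (ENSMUSG00000029233) lies on chromosome 5, 76140271 to 76155504, plus strand. Normalized counts of *Srd5a3* were 699, 634 and 672 with vehicle and 708, 729 and 716 with corticosterone. The groups did not overlap, but the gap between library means was small, 669 ± 32.4 against 718 ± 10.7 (SD, n = 3). The log2 fold change was 0.10 (SE 0.06, adjusted p = 0.32 by limma), with a 95% interval of -0.03 to 0.23 that corresponds to folds of 0.982 to 1.17. In the 22 alternatives its adjusted p stayed between 0.21 and 0.64.

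*Por*, the electron donor of microsomal P450 enzymes, had the highest level per length of the 9 genes and rose further. The gene (ENSMUSG00000005514) lies on chromosome 5, 135670033 to 135735326, plus strand. With vehicle it had 1491, 1493 and 1416 normalized counts and with corticosterone 1996, 1901 and 2300.2. The corticosterone libraries spread more widely, and all lay above the vehicle libraries. The means were 1467 ± 44.1 and 2066 ± 209 (SD, n = 3), a ratio of 1.41 and a log2 fold change of 0.49 (SE 0.06, 95% interval 0.36 to 0.62, adjusted p = 2.3e-05 by limma). Leaving out 1 library gave 0.41 to 0.55, and without the variance trend *Por* did not pass (adjusted p = 0.055 by limma), 1 of its 22 alternatives.

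Both rodent genes for the drug-transporting P-glycoprotein rose. *Abcb1b* (ENSMUSG00000028970, chromosome 5, 8798147 to 8866315, plus strand) was by far the more abundant one. Its normalized counts were 938, 841 and 909 with vehicle and 1229, 1134 and 1110.4 with corticosterone, without overlap. The means were 896 ± 50.2 and 1158 ± 62.8 (SD, n = 3), a ratio of 1.29 and a log2 fold change of 0.37 (SE 0.06, 95% interval 0.24 to 0.50, adjusted p = 0.00029 by limma). It did not pass without the variance trend (adjusted p = 0.069 by limma).

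*Abcb1a* (ENSMUSG00000040584, chromosome 5, 8660077 to 8748575, plus strand), the form known from the blood-brain barrier, was low. Its normalized counts were 43.8, 34.0 and 26.9 with vehicle and 62.1, 68.5 and 67.8 with corticosterone, from 26 to 62 reads per library. The vehicle libraries varied more than the corticosterone libraries, and the groups did not overlap. The means of 34.9 ± 8.48 and 66.1 ± 3.50 (SD, n = 3) gave a ratio of 1.90 and a log2 fold change of 0.95 (SE 0.22, 95% interval 0.47 to 1.43, adjusted p = 0.0068 by limma), just short of the size limit for a call. Without vehicle library 1 the log2 fold change was 1.13 and the gene was called, whereas without vehicle library 3 or corticosterone library 3 the adjusted p was 0.050 and 0.053 by limma. It was 0.068 without the variance trend and 0.063 with DESeq2 and the replicate block.

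The genes are near-copies, and the counting could have split their reads: 28.2% of the 31-base words of *Abcb1a* and 17.4% of those of *Abcb1b* occur in other genes, chiefly in each other. The sum of both, which splitting between them does not touch, was 931 ± 53.9 with vehicle and 1224 ± 59.4 with corticosterone (SD, n = 3, two-sided exact permutation p = 0.1). *Abcb1a* made up 4.46%, 3.88% and 2.87% of the pair with vehicle and 4.81%, 5.69% and 5.75% with corticosterone. All 3 shares were thus higher with the hormone, though the lowest was close to the highest vehicle share (two-sided exact permutation p = 0.1, the smallest possible). A 30-base window upstream of the *Abcb1b* start (chr5:8798058-8798087, GRCm38.p6, plus strand, first base 89 bases before the start) is shown because it holds a CCAAT box on each strand, marked in capitals.
Abcb1b: gcCCAATcccacccaccaggctgATTGGct

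*Nr3c2*, the mineralocorticoid receptor gene, could not be judged at this depth. The gene (ENSMUSG00000031618) lies on chromosome 8, 76899442 to 77245012, plus strand. It had 0, 4 and 2 reads with vehicle and 3, 2 and 0 reads with corticosterone, or normalized counts of 0, 3.09 and 2.07 and of 3.21, 2.21 and 0. The groups overlapped throughout (two-sided exact permutation p = 0.8), and the libraries with 0 reads allow a normalized count of up to 2.43 and 3.84. *Nr3c1*, the glucocorticoid receptor gene, had 379 ± 1.58 normalized counts per kb of exons with vehicle and 280 ± 13.4 with corticosterone (SD, n = 3), where *Nr3c2* had 0.265 ± 0.243 and 0.279 ± 0.254. The *Nr3c1* decrease was -0.44 on the log2 scale (adjusted p = 2.7e-06 by limma).

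**Figure D2:**
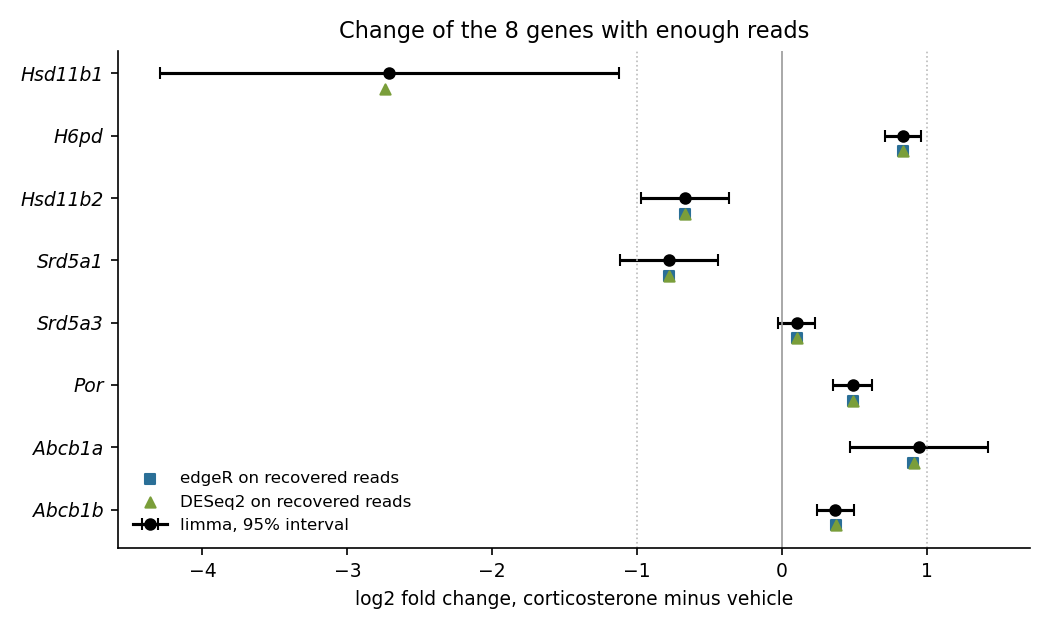
Log2 fold change (x axis, corticosterone minus vehicle) of the 8 judged genes by limma with its 95% interval, and by edgeR and DESeq2 on the recovered reads where each tested the gene. Dotted lines mark the size limit of 1. *Hsd11b1* lies beyond it with the widest interval, and the interval of *Srd5a3* crosses 0.

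Levels between genes were compared per kb of annotated exons. With vehicle the order was *Por* (365 normalized counts per kb), *H6pd* (149), *Srd5a3* (144), *Abcb1b* (112), *Hsd11b2* (61.9), *Srd5a1* (43.6), *Abcb1a* (6.37), *Hsd11b1* (2.39) and *Nr3c2* (0.265). *H6pd* and *Srd5a3* overlapped between libraries and the other neighbours did not. With corticosterone *H6pd* (266) stood clear of *Srd5a3* (154), which overlapped with *Abcb1b* (145), and *Hsd11b1* (0.357) overlapped with *Nr3c2* (0.279). The order of the 9 genes was the same in both groups.

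**Figure D3:**
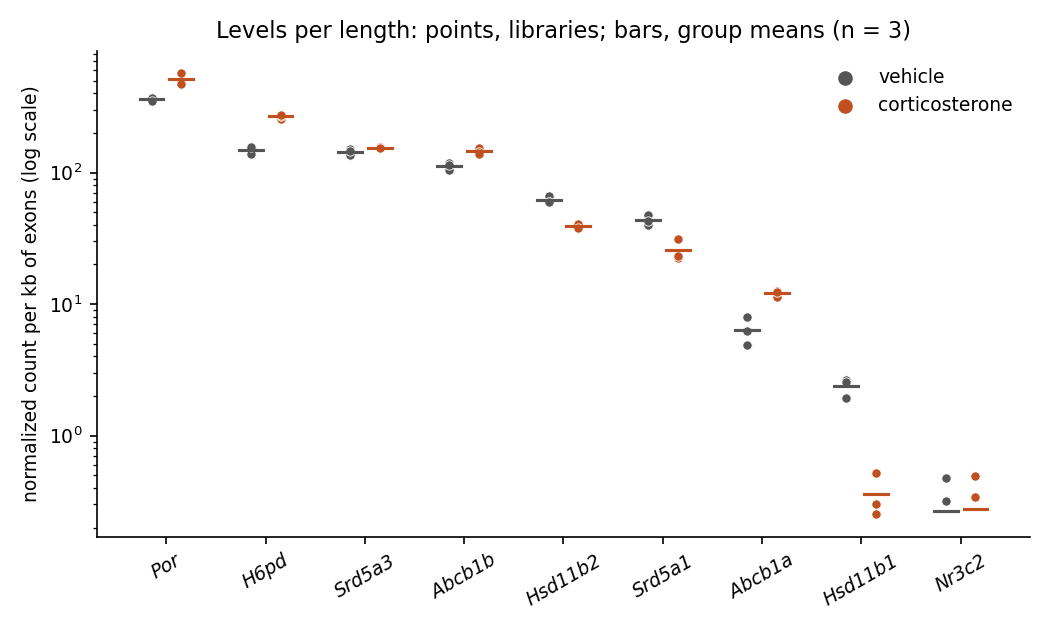
Normalized counts per kb of exons (y axis, log scale) of the 9 genes in each library, with group means as bars. The levels run from *Por* (365 with vehicle, 514 with corticosterone) down to *Nr3c2*, whose libraries at 0 cannot be drawn on the log axis but enter its means.

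The wider pathway was described with 7 lists of other genes, 72 in all, of which 57 had a row and 50 were judged. Of the 50, 2 were called higher and 0 lower by limma, edgeR and DESeq2 alike, beside 1.38% and 1.4% of all genes by limma. At an adjusted p under 0.05 by limma, 16 were higher and 5 lower, beside 8.49% and 8.2% of all genes. Among genes with a mean of at least 10, 27.7% passed in either direction. These shares also stand beside the counts of each list below. The lists were chosen with earlier results of these data known. Genes without a row were not analysed here.

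Of the glucocorticoid synthesis genes, 4 of 10 were judged and 2 rose, with a median log2 fold change of 0.42. *Fdxr*, the reductase that starts electron transfer to mitochondrial P450 enzymes, rose from 823 ± 18.5 to 1956 ± 57.4 normalized counts (SD, n = 3, log2 fold change 1.25, adjusted p = 3.5e-11 by limma). Its partner ferredoxin, *Fdx1*, rose by 0.56 on the log2 scale (adjusted p = 0.0011 by limma). *Star*, which brings cholesterol to the mitochondrion, had 56.5 and 56.0 normalized counts, and the hormone-making *Cyp11b1*, *Cyp21a1* and *Hsd3b1* were too low to judge.

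In the list of NADPH supply and the pentose phosphate pathway, 6 of 11 rose and 1 fell, with a median of 0.19. Those that rose were *Rpe* (log2 fold change 0.74), *Pgd* (0.68), *Idh1* (0.66), *Taldo1* (0.37), *Tkt* (0.19) and *G6pdx* (0.18), and *Me1*, the cytosolic malic enzyme, fell by 0.43 on the log2 scale. *G6pdx* encodes the cytosolic counterpart of the *H6pd* enzyme. *Slc37a4*, the transporter that brings glucose 6-phosphate to the *H6pd* enzyme, did not pass (0.30, adjusted p = 0.13 by limma).

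Among partners of the *Por* product and the cytochrome b5 system, 3 of 15 rose and 2 fell, with a median of -0.05. *Cyb5a*, the microsomal cytochrome b5, rose by 0.94 on the log2 scale and *Cyp26b1*, which degrades retinoic acid, by 0.75, from 8698 to 14631 normalized counts. *Hmox1*, the inducible heme oxygenase, rose by 0.29. *Cyp51*, of cholesterol synthesis, fell by 0.33 and *Cyb5r3*, a cytochrome b5 reductase, by 0.32.

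Of the other ABC exporters, 7 of 10 were judged, 4 rose and 0 fell, with a median of 0.51 over the 9 with a row. *Abcb4*, the phosphatidylcholine exporter that follows *Abcb1b* on chromosome 5 (8893717 to 8959231, plus strand), rose from 124 ± 2.29 to 317 ± 7.76 normalized counts (SD, n = 3, log2 fold change 1.36, adjusted p = 2.3e-08 by limma). It shares 4.76% of its 31-base words with other genes, chiefly *Abcb1a*. Its change was larger than those of its neighbours *Abcb1a* (0.95) and *Abcb1b* (0.37), and its interval of 1.16 to 1.56 overlapped that of *Abcb1a* but not that of *Abcb1b*. *Abcc4*, *Abcc10* and *Abcc1* rose by 0.65, 0.55 and 0.51.

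Of 6 judged steroid reductases and dehydrogenases, among them *Akr1c14*, which reduces steroids further, 0 passed in either direction by limma, edgeR or DESeq2, with a median of 0.05. At an unadjusted p under 0.05, 2 of the 6 were higher by limma, 1 by edgeR and 0 by DESeq2. Of 5 judged genes of the dolichol list, *Nus1* rose by 0.17 on the log2 scale. Of the receptor and carrier list, *Nr3c1* fell, as given above.

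**Figure D4:**
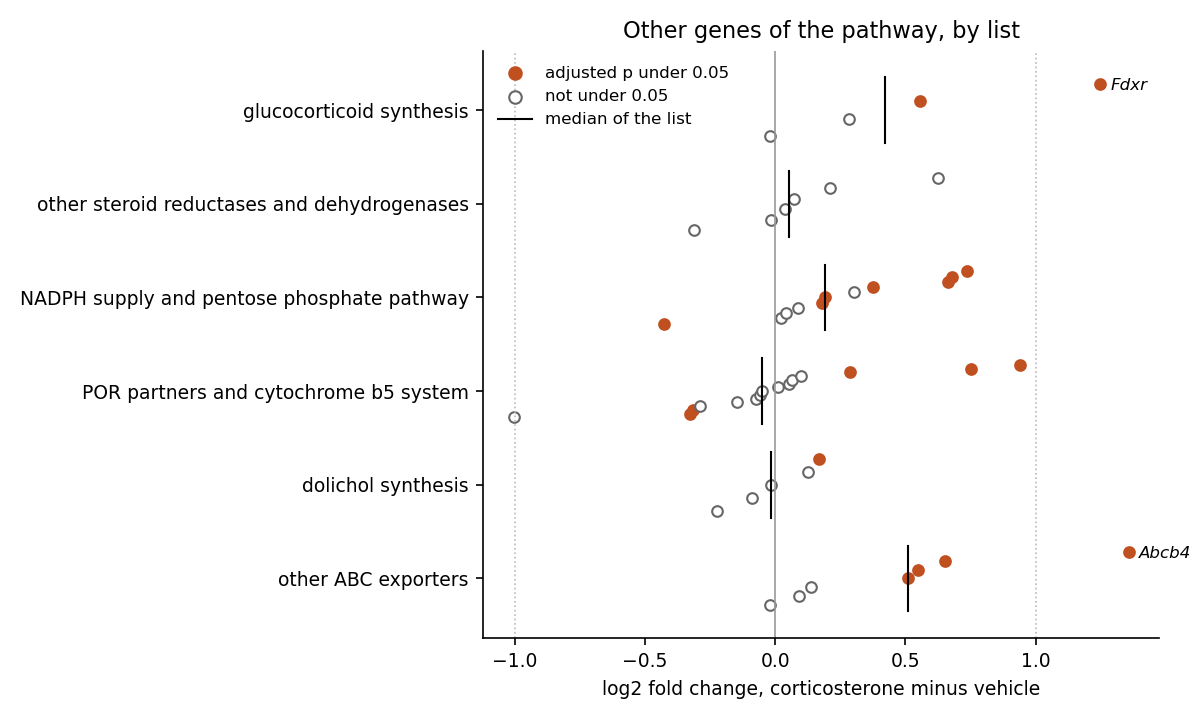
Log2 fold changes (x axis, corticosterone minus vehicle) of the judged genes of the pathway lists other than the receptor and carrier list, 1 point a gene, filled where the adjusted p was under 0.05, with the median of the judged genes as a bar. *Fdxr* (1.25) and *Abcb4* (1.36) are the points called higher.

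Markers of cell types were set beside these results. The 10 osteoblast genes, of which 1 was too low to judge, had a summed normalized count of 1357910 to 1404040 with vehicle and 1182820 to 1238350 with corticosterone. Most of that sum came from *Col1a1* and *Col1a2*, with means of 709237 and 560839 with vehicle. Of 10 with a row, 7 were lower and 1, *Spp1*, was higher at an adjusted p under 0.05 by limma, beside 8.2% and 8.49% of all genes. With the size limit, 4 of the 10 were called lower, beside 1.4% of all genes. The 2 adipocyte markers with a row summed to 7.72 to 21.1 with vehicle and 108 to 133 with corticosterone, almost wholly from *Fabp4*, a fatty acid carrier, while *Plin1* was at 0 in 5 of 6 libraries. The 2 chondrocyte markers summed to 1145 to 1455 and 701 to 851, the 2 macrophage markers to 46.5 to 62.4 and 43.5 to 47.5, the 2 endothelial markers to 0 to 10.5 and 1.07 to 12.8, and the 2 adrenocortical markers to 60.0 to 68.3 and 52.5 to 67.5. The other 3 adipocyte, 3 macrophage, 2 chondrocyte, 2 endothelial and 2 adrenocortical markers had no row. The 2 endothelial markers with a row were too low to judge. The chondrocyte change was that of *Col2a1*, from a mean of 1297 to 744, while *Comp* did not pass (adjusted p = 0.68 by limma). The summed osteoblast markers, *Col2a1* and *Fabp4* thus moved with treatment. So few genes do not give the level of a cell type, and their part in the changes of the 9 genes was not tested.

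By the root mean square difference of log2 values, each centred on its gene's mean over the 6 libraries, the genes most like *Hsd11b1* among 11462 with a mean of at least 50 were *Gm19299* (0.281), *Plch1* (0.316) and *Mest* (0.344). *Mest*, an imprinted gene, ranged over 4288 to 5820 normalized counts with vehicle and 587 to 720 with corticosterone, so that it rests on far more reads than *Hsd11b1*. This is a description over 6 libraries with no test.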

How the data were processed

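RNA-seq was done on 3 vehicle and 3 corticosterone libraries (NEBNext Ultra RNA kit). The submitters' processing notes name the mm10 build. The aligner, the counter and its use of strand are not given in the sources used here. The authors deposited 1 non-negative signal per gene and library, named FPKM. These are normalized counts: in each library 100% of the deposited signal values are whole multiples of 1 step within 0.1 read, whatever the gene's length, so whole reads were recovered. Size factors were 0.967 to 1.30 with vehicle and 0.782 to 0.934 with corticosterone. No authors' fold changes or p-values were used.

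In R 4.3.3, limma 3.58.1 (lmFit, then eBayes with trend) was the main test, run on log2(normalized count + 0.1). Its filter, a mean of 0.1 or more, removed none of 24016 genes. Alternatives were edgeR 4.0.16 (quasi-likelihood) and DESeq2 1.42.0 on recovered reads, other pseudocounts, filters, scalings and priors, the replicate block, and leaving out each library. Adjusted p-values are from limma unless named. The fits were tested on simulated data. A gene with under 10 reads in every library was too low to judge. Exact permutation tests were two-sided. The single-gene result of 1 list gene is not reported here, while the fits and counts include it.

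The members and the gene lists were chosen with earlier results of these data known. The text names the members, list genes past the adjusted p threshold or among the 3 most abundant of a list, the 3 genes most like a called member, and genes overlapping a member. *Slc37a4*, *Cyp11b1*, *Cyp21a1* and *Hsd3b1* were named with their values in view. Both groups carry replicate numbers 1 to 3, but same-numbered libraries deviated together only weakly (correlations 0.0375, 0.0610 and 0.0198), so they were not taken as pairs. Libraries of 1 group differed beyond sampling noise. Positions are from GENCODE on GRCm38, which named 23983 of the genes, and upstream sequences from RefSeq on GRCm38.p6, matched for 8 of 9 members. Shared 31-base words were counted over annotated transcripts. Plots used matplotlib 3.10.9.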

Additional observations from a re-analysis of the deposited data

How the results depend on the processing

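No log2 fold change of the 8 judged members changed sign in any alternative that tested it, and *Nr3c2* was too low to be included. Over all genes, 331 were called higher and 337 lower. The lower count was 198 with DESeq2 and the replicate block, and 204 to 321 without 1 library, with 204 lacking vehicle library 3 and 220 lacking vehicle library 2. Of the members, 0 were called lower at a mean of at least 10, by edgeR on recovered reads and by DESeq2 with the replicate block, since *Hsd11b1* was not tested there, and 0 to 1 without 1 library. Between 0 and 1 were called higher without 1 library, the 1 being *Abcb1a* without vehicle library 1. The members with an adjusted p under 0.05 numbered 7, but 3 without a variance trend and 4 with DESeq2 and the replicate block, and 5 to 7 without 1 library. The cause was not tested. Without the trend, adjusted p was 0.068 for *Srd5a1* and *Abcb1a*, 0.069 for *Abcb1b* and 0.055 for *Por*. With DESeq2 and the replicate block it was 0.068 for *Hsd11b2* and 0.063 for *Abcb1a*. With limma and the replicate block, 297 genes were called higher and 294 lower, and 7 members passed. Scaling to the same total shifted the median of genes with a mean of at least 10 by -0.0417 on the log2 scale, the largest shift of the 3 scalings. Depth limits *Nr3c2* and *Hsd11b1*, at no more than 4 and 14 reads per library.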
